A study of Mus musculus with 6 samples.

Results

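The E proteins Tcf3, Tcf12 and Tcf4, the Id proteins Id1, Id2 and Id3 and the adaptor Ldb1 were followed in DN3a thymocytes with and without a GATA3 transgene. The 7 genes were chosen by name, from what is known of their roles, but with earlier results of these data known. All were found among the 41254 gene symbols of the deposited table, where they account for 64 of 100144 transcripts. Thymocytes at the DN3a stage are T cell precursors without CD4 and CD8 that are recombining the T cell receptor beta locus and have not yet passed selection for a working beta chain. Total RNA depleted of ribosomal RNA was sequenced from cells of adult C57BL/6 mice, 3 wild-type libraries and 3 libraries of the genotype written Tg_Cd2_GATA3. The labels do not describe the construct beyond that name, and give neither the sex of the mice, nor the cell sort, nor whether animals were pooled. They also do not say that replicates came from separate animals, so the p-values measure the spread between these samples, which may be technical. The series' title concerns GATA3 dosage and the use of a single T cell receptor beta allele per cell.

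E proteins are basic helix-loop-helix transcription factors that pair with each other and bind E-box sequences, and in thymocytes at this stage they are known to drive Rag1, Rag2, Ptcra and other genes of the programme before beta selection. Id proteins carry the helix-loop-helix part without the basic region, so that an E protein paired with an Id protein cannot bind DNA; signals from the pre-TCR are known to raise Id3 through Egr factors. LDB1 does not bind DNA itself and joins LIM-domain proteins to complexes that can hold E proteins, SCL or LYL1 and GATA factors, GATA3 among them.

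The 6 libraries held 39022281 to 46985605 assigned fragments. Wild-type replicate 1 and transgenic replicate 3 stood apart by 18522 and 16840 fragments of Y-linked genes, against 16 to 26 in the other libraries. The 10 markers listed for DN3a cells each averaged at least 1 FPKM (fragments scaled to transcript length and library size), and their summed level was 3274 to 3677 FPKM in wild-type and 3520 to 3926 FPKM in transgenic libraries. Of the markers of other cells in which these genes have known roles, Pax5 (B cells), Klk1 (plasmacytoid dendritic cells), Ncr1 and Eomes (natural killer cells) were at 0 FPKM in all 6 libraries, and Siglech, a further marker of plasmacytoid dendritic cells, averaged 0.00443 FPKM. Other genes of the same lists, which are not limited to those cells, were present. Cd79b and Ighm averaged 33.3 and 60.3 FPKM, Bst2, Spib and Ccr9 174.6, 20.6 and 48.5 FPKM, and Nkg7 and Il7r 53.8 and 28.4 FPKM. By replicate, Spib had 17.8, 16.8 and 18.6 FPKM in wild-type and 18.7, 26.0 and 25.4 FPKM in transgenic libraries. Ccr9 had 45.5, 39.1 and 36.1 against 46.3, 53.6 and 70.8 FPKM. Both groups were thus apart, while those of Bst2 overlapped. In counts, 18.8% of all genes had groups that did not overlap. The part of plasmacytoid dendritic cells in these values was not tested. Irf8, of the plasmacytoid dendritic list, lies at a locus marked as a failed estimate, is listed at 0 in all wild-type libraries and was not compared. The 6 markers listed for cells after beta selection each averaged at least 1 FPKM. They summed to 221 to 237 FPKM in wild-type and 223 to 241 FPKM in transgenic libraries. Of the gamma delta T cell list, Sox13, Blk and Cd24a averaged 14.8, 6.78 and 332.7 FPKM, and Maf and Zbtb16 0.617 and 0.0292 FPKM. The 5 markers of double-positive thymocytes summed to 15.3 to 18.8 FPKM in wild-type and 7.09 to 13.8 FPKM in transgenic libraries, with none of the 5 at 0. Erythroid markers summed to 1.15 to 7.70 FPKM in wild-type and 4.66 to 14.2 FPKM in transgenic libraries, and myeloid markers to 16.2 to 19.4 and 18.2 to 20.3 FPKM. Markers of thymic epithelium and stroma summed to 68.9 to 73.9 and 69.5 to 82.6 FPKM, where only Epcam and Pecam1 averaged at least 1 FPKM. Gata3, the gene of the transgene, had normalised values of 49.1, 38.2 and 43.5 CPM (counts scaled to library size) in the wild-type libraries, in replicate order here and throughout, and 58.6, 53.6 and 61.6 CPM in the transgenic ones. These groups did not overlap, and the log2 fold change was 0.41 ± 0.10 (SE) with an adjusted p of 0.170 in edgeR's quasi-likelihood test and 0.00731 in DESeq2.

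A pair of Tcf3 exons and a pair of Tcf12 exons carry the isoform results and are shown for that reason, written 5′ to 3′ as transcribed from the minus strand (GENCODE M21 transcripts, GRCm38, the mm10 coordinates). The first pair are the mutually exclusive Tcf3 exons that encode the helix-loop-helix region of E12 (chr10:80412827-80413062) and of E47 (chr10:80410398-80410624). Capitals mark bases that differ from the other exon, or have no partner in it, in an alignment of the pair.
Tcf3 E12 exon: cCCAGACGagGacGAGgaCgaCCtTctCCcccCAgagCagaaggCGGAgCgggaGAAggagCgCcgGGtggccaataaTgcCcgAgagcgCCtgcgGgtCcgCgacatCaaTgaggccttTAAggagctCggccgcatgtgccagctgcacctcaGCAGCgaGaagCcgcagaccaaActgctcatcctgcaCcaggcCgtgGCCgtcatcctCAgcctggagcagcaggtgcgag
Tcf3 E47 exon: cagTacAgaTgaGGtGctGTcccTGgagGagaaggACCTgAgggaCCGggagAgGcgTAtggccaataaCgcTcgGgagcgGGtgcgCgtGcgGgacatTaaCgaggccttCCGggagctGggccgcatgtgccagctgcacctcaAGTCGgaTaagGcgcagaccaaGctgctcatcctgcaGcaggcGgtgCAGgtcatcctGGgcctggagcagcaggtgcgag
The alignment had 236 columns, of which 175 were identical (74.2%), 52 were mismatches and 9 were gaps. The second pair belong to Tcf12, an optional exon of 72 bases (chr9:71868999-71869070) and the first coding exon of the transcripts that start inside the gene (69 bases, chr9:71895930-71895998), which encodes the start of the short form known as HEBAlt.
Tcf12 optional exon: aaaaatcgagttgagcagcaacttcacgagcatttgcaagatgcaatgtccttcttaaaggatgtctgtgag
Tcf12 internal first coding exon: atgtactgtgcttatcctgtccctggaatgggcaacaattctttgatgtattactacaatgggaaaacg

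Levels per length spanned over 2 orders of magnitude and fell into the same order in the group means of wild-type and transgenic libraries. Ldb1 stood highest at 141 ± 10.5 FPKM (SD, n = 3) in wild-type and 159 ± 6.88 FPKM in transgenic libraries. Tcf12 (HEB) followed at 114 ± 2.44 and 109.6 ± 6.21 FPKM, and Tcf3 (E2A) at 63.5 ± 3.52 and 66.2 ± 5.43 FPKM. Id3 was the most abundant Id gene at 25.3 ± 4.21 and 23.6 ± 4.15 FPKM. Tcf4 (E2-2), the E protein that plasmacytoid dendritic cells depend on, stood at 16.4 ± 0.205 and 18.5 ± 1.29 FPKM. Id2 was at 6.79 ± 2.24 and 8.07 ± 1.84 FPKM, and Id1 at 0.889 ± 0.520 and 0.862 ± 0.381 FPKM. Libraries of one group did not overlap between neighbours in this order, except that Id3 and Tcf4 overlapped in the transgenic group, where the lowest Id3 and the highest Tcf4 library met at 19.3 FPKM.

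**Figure D1:**
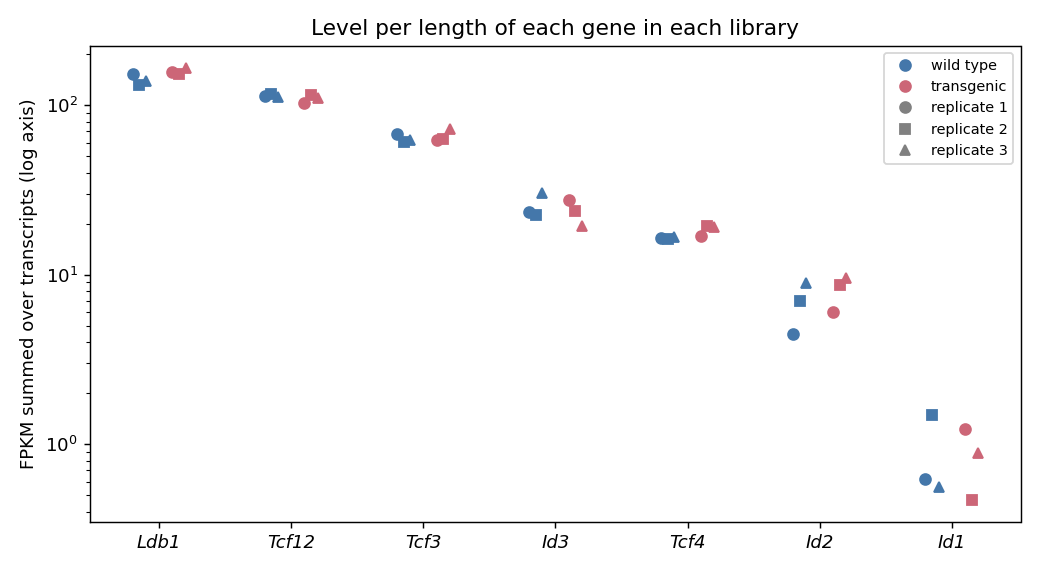
FPKM summed over the transcripts of each gene (log axis), in each library of wild-type and transgenic DN3a thymocytes, genes ordered by their wild-type mean. Ldb1, Tcf12 and Tcf3 lie above 60 FPKM in every library, and Id1 lies below 2 FPKM.

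Within the family, Tcf12 made up 58.7% ± 1.41 (SD, n = 3) of summed E protein FPKM in wild-type and 56.4% ± 1.82 in transgenic libraries, and Tcf3 made up 32.8% ± 1.43 and 34.1% ± 1.97. Tcf4 made up 8.32%, 8.40% and 8.71% in wild-type libraries and 9.29%, 9.75% and 9.45% in the transgenic ones, so its share was higher in every transgenic library. Summed Id FPKM per 100 FPKM of E proteins was 14.5, 15.95 and 20.8 in the wild-type and 19.1, 16.6 and 14.8 in the transgenic libraries. The Id to E protein ratios of the groups overlapped over most of their range, with means of 17.1 ± 3.29 and 16.8 ± 2.16. Ldb1 FPKM per 100 FPKM of E proteins was 77.1, 67.9 and 73.3 in wild-type against 85.8, 77.4 and 82.7 in transgenic libraries, with the lowest transgenic value just above the highest wild-type one. For such ratios no share without overlap was computed over all genes. For single genes, compared in counts, that share was 18.8%. The Tcf4 and Ldb1 ratios come from the same libraries as the comparisons of these genes below, so they add no separate result.

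The comparison of the groups asked whether the GATA3 transgene went with other levels of these regulators. None of the 7 genes passed an adjusted p of 0.05 in edgeR's quasi-likelihood test over all 14653 genes tested, where 0.0136% of genes did. At an unadjusted p under 0.05 there were 2 of 7, Ldb1 and Tcf4, both higher in transgenic libraries, against a background of 13.4% of all genes and 5.71% for higher ones. The same 2 genes had groups that did not overlap, against 18.8% of all genes in either direction and 8.73% with transgenic libraries higher. In bulk RNA, a smaller share of cells with a transcript and less of it per cell cannot be told apart.

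Tcf3 (chr10:80409514-80433647, minus strand) encodes E12 and E47, the E proteins that open the way into the T and B cell lineages. Its normalised values were 217, 202 and 193 CPM in wild-type and 201, 213 and 222 CPM in transgenic libraries. The groups overlapped, with means of 204 ± 12.1 and 212 ± 10.8 CPM (SD, n = 3), and edgeR gave a log2 fold change of 0.06 ± 0.06 (SE) with an adjusted p of 0.767. Tcf12 (chr9:71842688-72111871, minus strand) encodes HEB, the E protein that pairs with E2A in thymocytes. It was the steadiest of the 7 genes, at 406, 394 and 400.2 CPM in wild-type and 406, 402 and 408 CPM in transgenic libraries. All 6 values lay within 0.05 on the log2 scale of log2(CPM + 0.5), and the log2 fold change was 0.02 ± 0.05 (SE, edgeR adjusted p = 0.912).

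Tcf4 (chr18:69343356-69689079, plus strand) had 71.97, 69.3 and 75.4 CPM in wild-type and 78.3, 83.6 and 81.6 CPM in transgenic libraries. Every transgenic library was above every wild-type one, and the means of 72.2 ± 3.05 and 81.2 ± 2.64 CPM (SD, n = 3) stood 1.12-fold apart. The log2 fold change was 0.17 ± 0.06 (SE), with an unadjusted p of 0.0240 and an adjusted p of 0.287 in edgeR. The exact two-sided permutation p was 0.1, the smallest that 3 against 3 libraries allow. DESeq2, as an alternative, gave Tcf4 an adjusted p of 0.170 while calling 5.21% of the genes to which it gave one.

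Among the inhibitors, Id3 (chr4:136143497-136145755, plus strand) is the Id gene that pre-TCR signals induce. It had 25.0, 24.5 and 30.0 CPM in wild-type and 28.4, 26.4 and 19.2 CPM in transgenic libraries. The lowest value came from transgenic replicate 3 and the highest from wild-type replicate 3, so the groups overlapped, although both other transgenic libraries lay above both other wild-type ones. The log2 fold change was −0.10 ± 0.15 (SE, edgeR adjusted p = 0.822), and 0.05 without transgenic replicate 3. Id2 (chr12:25093799-25097140, minus strand), which innate lymphoid and natural killer cells require, had 5.06, 7.64 and 10.1 CPM in wild-type and 6.80, 9.38 and 10.4 CPM in transgenic libraries. The groups overlapped, the log2 fold change was 0.22 ± 0.25 (SE, edgeR adjusted p = 0.770), and it was −0.0021 without wild-type replicate 1, the lowest library. Id1 (chr2:152736251-152737410, plus strand), a target of BMP signals in many tissues, was close to the floor of detection, with 30, 67 and 23 fragments in wild-type and 49, 18 and 31 fragments in transgenic libraries. Its log2 fold change of −0.11 ± 0.59 (SE, edgeR adjusted p = 0.964) was far smaller than its error, and its sign turned when wild-type replicate 2 (0.47) or transgenic replicate 2 (0.18) was left out.

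Ldb1 (chr19:46031570-46045214, minus strand) had 369, 320.3 and 326 CPM in wild-type and 386, 386 and 391 CPM in transgenic libraries. All transgenic values were above all wild-type ones, but wild-type replicate 1 lay closer to the transgenic libraries than to the other wild-type ones. The means were 338 ± 26.7 and 388 ± 3.11 CPM (SD, n = 3), a 1.15-fold difference. The log2 fold change was 0.20 ± 0.06 (SE), unadjusted p = 0.0125. Its adjusted p was 0.235 in edgeR and 0.0518 in DESeq2, and the exact two-sided permutation p was 0.1. Without wild-type replicate 1 the log2 fold change was 0.26 and the edgeR adjusted p 0.0299, in a fit that called 3.32% of its genes, so this 1 library decides the call. Wild-type replicate 1 carries Y-linked RNA. With a covariate for such RNA, Ldb1 had a log2 fold change of 0.20 and an edgeR adjusted p of 0.0952, where 1.75% of genes were called. Without both libraries that carry it, the values were 0.26 and 0.0579, where 1.76% were called. The 5′ end of Ldb1 overlaps Pprc1 on the opposite strand by 329 bases, and the sources used here do not state whether fragments were counted by strand. Pprc1 itself was at −0.03 ± 0.09 (log2 fold change, SE), with an edgeR adjusted p of 0.920.

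**Figure D2:**
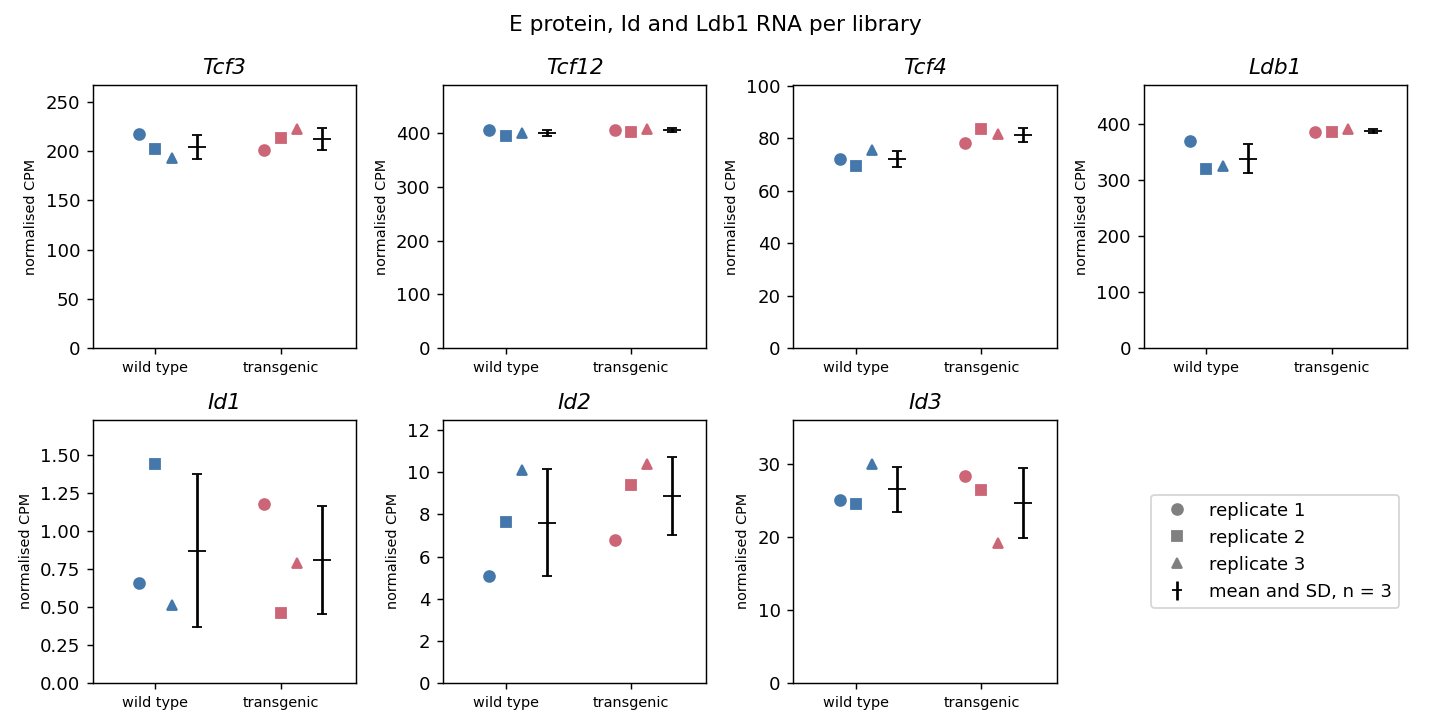
Normalised CPM of the 7 genes in each library, each panel from 0, with the mean and SD of 3 libraries in black. The transgenic points lie above all wild-type points for Tcf4 and Ldb1 and overlap them for the other genes.

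All of these genes but Id2 are annotated with more than 1 transcript, and the E proteins are known for isoforms that differ in the helix-loop-helix region or in where they start. Of the 64 transcripts 59 had fragments, 25 held at least 5% of their gene's fragments in the mean of either group, and 48 were abundant enough to test. None passed an adjusted p of 0.05 in edgeR's transcript test, where 0% of 38358 transcripts did. At an unadjusted p under 0.05 there were 2, Tcf12-215 and Ldb1-205, beside 5.6% of all transcripts tested. In the test of usage, which sets each transcript against the rest of its gene, 0 of 46 passed the adjusted threshold, against 0.121% of 31349 transcripts, and 0 had an unadjusted p under 0.05, against 1.54%. The authors' deposited table also marked 0 of the 64 as changed, with a lowest q-value of 0.998. The share it marked over all transcripts was not computed, so this 0 has no background beside it. Over all genes, transcripts varied far more between replicates than genes did, with a common biological coefficient of variation of 71.1% against 19.5%.

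For Tcf3, the spread of single transcripts was much wider than that of the gene. Its 7 main transcripts share 2585 bases, 89.8% of their mean length, and reads from shared bases must be divided between them. Tcf3-202, an E47 transcript, held 35.8%, 29.4% and 44.9% of Tcf3 fragments in wild-type and 35.0%, 21.7% and 45.3% in transgenic libraries. Tcf3-210 and Tcf3-201 both carry the E12 exon and replaced each other from library to library. Tcf3-210 held 0.01%, 21.1% and 17.04% in wild-type libraries, where Tcf3-201 held 17.04%, 0.51% and 0.17%. The median coefficient of variation of the 7 transcripts in wild-type libraries was 89.1%, against 5.95% for the gene.

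Summed by the helix-loop-helix exons of E12 and E47, the shares varied less between libraries. The E47 exon took 78.9%, 72.8% and 81.2% of E12 and E47 fragments in wild-type and 76.5%, 76.7% and 81.6% in transgenic libraries. The groups overlapped around means of 77.6% ± 4.36 and 78.2% ± 2.87 (SD, n = 3). Transcripts with neither exon held 0.774% and 1.09% of the gene's fragments in the group means, and 4.96% and 7.34% of its FPKM. These classes were formed after the transcript values had been seen, so they are given as values with no test.

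**Figure D3:**
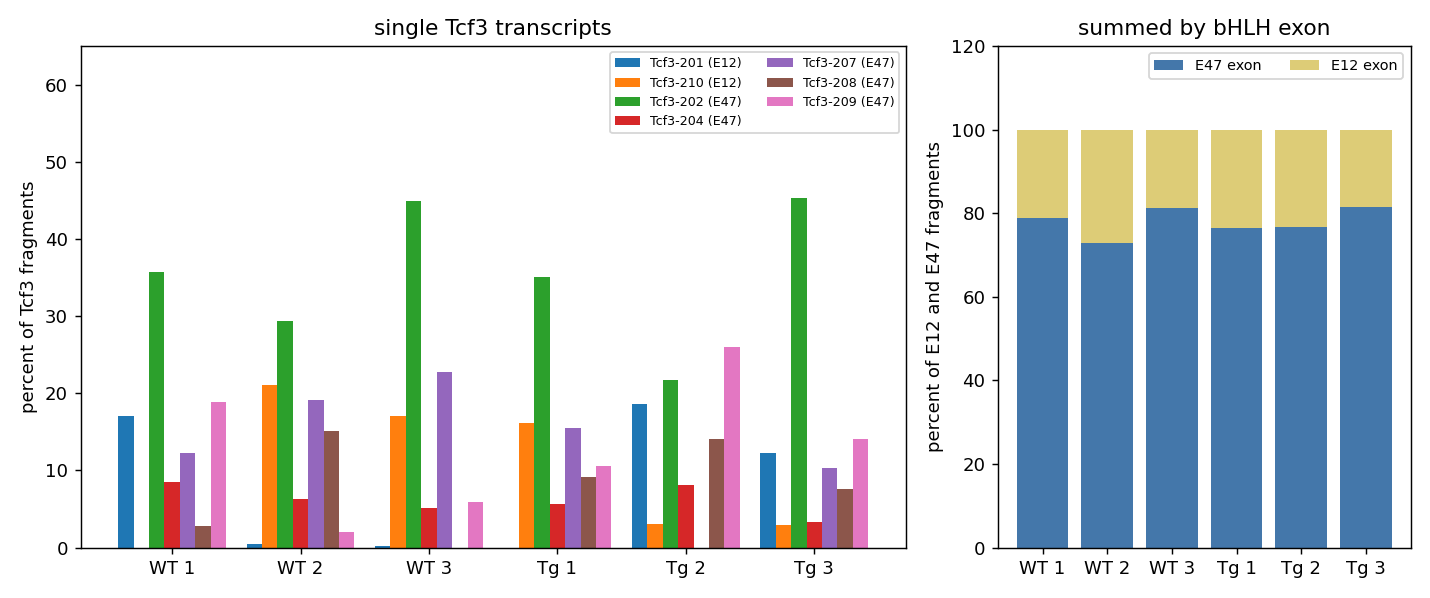
Left, percent of Tcf3 fragments assigned to each of the 7 main transcripts in each library; right, percent of fragments of transcripts with the E47 or the E12 exon. Single transcripts run from 0 to 45.3%, while the E47 share stays between 72.8% and 81.6% in the 6 libraries.

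Tcf12 was led by Tcf12-201 and Tcf12-221, which start at the first exons and held 39.9% and 25.1% of its fragments in the wild-type mean and 42.0% and 26.1% in the transgenic mean. All transcripts from the first exons together held 81.4%, 74.7% and 77.5% in wild-type and 82.3%, 82.3% and 82.7% in transgenic libraries. The groups did not overlap, but wild-type replicate 1 lay nearer to the transgenic libraries than to the other wild-type ones. For such classes of transcripts, no share without overlap was computed over all genes. HEBAlt, the short HEB form known from mouse T cell precursors, begins with the internal coding exon. Its coding transcripts, Tcf12-207 and Tcf12-215, held 3.64%, 8.75% and 9.21% of Tcf12 fragments in wild-type replicates 1, 2 and 3. In transgenic libraries they held 3.25%, 4.06% and 3.59%. Wild-type replicates 2 and 3 were thus above all transgenic libraries, while wild-type replicate 1 lay among them. As fragments these were 675, 1604 and 1665 against 552, 639 and 577.

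The group means of the HEBAlt share were 7.20% ± 3.09 and 3.64% ± 0.404 (SD, n = 3), and the wild-type mean was 8.98% without replicate 1. Tcf12-217, a transcript from the same start that keeps an intron, held 8.01% and 7.87%. All 4 internal-start transcripts together held 15.4% ± 3.38 and 11.6% ± 0.342, and the groups overlapped. As shares of FPKM, which weigh transcripts by length, all 4 held 15.7% ± 4.04 and 11.1% ± 0.474, again with overlap. The coding transcripts Tcf12-207 and Tcf12-215 held 5.74%, 9.31% and 12.7% of FPKM in wild-type libraries. In transgenic libraries they held 5.09%, 4.57% and 5.05%, and here the groups did not overlap. The transcript tests, which were not built on these classes, called neither Tcf12-207 nor Tcf12-215. Tcf12-215 was at −1.05 ± 0.43 (log2 fold change, SE), with an unadjusted p of 0.0472 and an adjusted p of 0.888 in edgeR, and Tcf12-207 at −0.92 ± 0.62 (SE, unadjusted p = 0.189). The optional exon was in 12.2%, 15.2% and 15.6% of the fragments of transcripts that span it in wild-type and in 11.4%, 13.6% and 12.3% in transgenic libraries, and the groups overlapped.

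**Figure D4:**
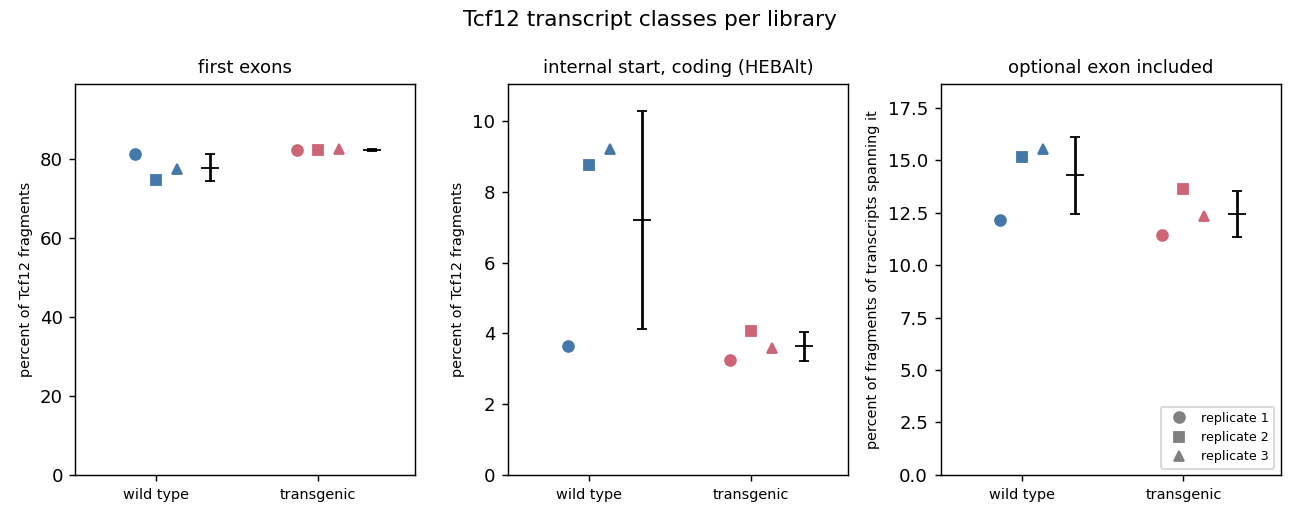
Percent of Tcf12 fragments in transcripts from the first exons (left), in coding transcripts from the internal start (middle), and, of transcripts that span it, in those with the optional exon (right), with the mean and SD of 3 libraries. Wild-type replicate 1 lies beside the transgenic libraries in all 3 panels.

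Among the 25 main transcripts, 0 had shares of fragments that did not overlap between the groups, against 10.9% of all transcripts with such a share. With shares of FPKM there was 1, Tcf12-201, at 28.2% in the wild-type and 32.0% in the transgenic mean. The background was computed for shares of fragments only, so this 1 has none beside it. For Ldb1, transcripts from the internal start held 34.1%, 30.9% and 35.9% of fragments in wild-type and 35.6%, 33.8% and 35.5% in transgenic libraries, and the groups overlapped. Its leading transcript Ldb1-205 held 31.5% in both group means and was at 0.19 ± 0.07 (log2 fold change, SE, unadjusted p = 0.0424, edgeR adjusted p = 0.863). Tcf4 transcripts from the first exons held 72.4% ± 4.06 and 72.9% ± 2.01 (SD, n = 3). Within them the division was unstable, since Tcf4-202 was listed at 18.5%, 0.00% and 36.8% in wild-type and 37.4%, 30.8% and 42.4% in transgenic libraries. Id2 has 1 transcript in the table, counted among the 25, so its share was 100% in every library and could not differ. An Id3 transcript that keeps an intron, Id3-203, held 2.29%, 6.02% and 4.56% in wild-type and 8.51%, 3.24% and 9.13% in transgenic libraries, with overlap.

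The surroundings of these regulators were read from 6 lists with 98 distinct genes, of which 85 were tested. The lists were chosen with earlier results of these data known, so their counts are descriptions only. None of the 85 was called by edgeR, beside 0.0136% of all genes. DESeq2 called 11, beside 5.21% of the 9815 genes to which it gave an adjusted p. It gave none to some of the 85, Lyl1 and Cd4 among them. At an unadjusted p under 0.05 there were 16 higher and 5 lower genes, where 5.71% and 7.7% of all genes were higher and lower, and the groups did not overlap for 20, beside 18.8% of all genes. The median log2 fold change of all tested genes was 0.0011.

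Genes known as E protein targets in early T cells were all measurable, 30 of 30. Of them 19 were above and 11 below 0, the median was 0.08 on the log2 scale, and 9 higher and 1 lower had an unadjusted p under 0.05, beside 5.71% and 7.7% of all genes. DESeq2 called 5, all higher, beside 5.21%, in either direction, of the genes to which it gave an adjusted p. Cd4 and Gfi1b were given none. Notch3, a receptor of the Notch pathway, had 630.2, 545 and 559.5 CPM in wild-type and 689.7, 732 and 728 CPM in transgenic libraries. These did not overlap, at a log2 fold change of 0.31 ± 0.06 (SE) with an adjusted p of 0.159 in edgeR and 0.000518 in DESeq2. Cxcr4, a chemokine receptor of early thymocytes, stood at 335 ± 8.32 and 396 ± 11.1 CPM (SD, n = 3), with an edgeR adjusted p of 0.159. Notch1, whose product drives the T cell fate, stood at 1585 ± 111.5 and 1802 ± 38.7 CPM, a log2 fold change of 0.19 ± 0.06 (SE, edgeR adjusted p = 0.219). Bcl11b (0.26), Socs1 (0.32), Gfi1 (0.19) and Ccr9 (0.47) also had positive log2 fold changes with edgeR adjusted p-values between 0.193 and 0.231.

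The targets best known for recombination and the pre-TCR had smaller differences. Rag1, which with Rag2 cuts the receptor loci, had 1956 ± 76.6 CPM in wild-type and 1846 ± 111.0 CPM in transgenic libraries (SD, n = 3), a log2 fold change of −0.08 ± 0.06 (SE). Rag2 had 0.05 ± 0.08 and Ptcra, the pre-TCR alpha chain, 0.10 ± 0.07 on the same scale. The adjusted p-values of all 3 in edgeR were at least 0.582. Cd4, a coreceptor that DN3a cells lack, had 6.90, 6.76 and 7.0 CPM in wild-type and 4.86, 3.30 and 2.97 CPM in transgenic libraries. These groups did not overlap in CPM. In FPKM they did, at 2.60, 1.70 and 3.12 in wild-type and 2.76, 0.951 and 0.872 in transgenic libraries. The log2 fold change of Cd4, from counts, was −0.89 ± 0.22 (SE, edgeR adjusted p = 0.162). The summed markers of double-positive thymocytes, Cd4 among them, were lower in the transgenic libraries too, and their part in this value was not tested.

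**Figure D5:**
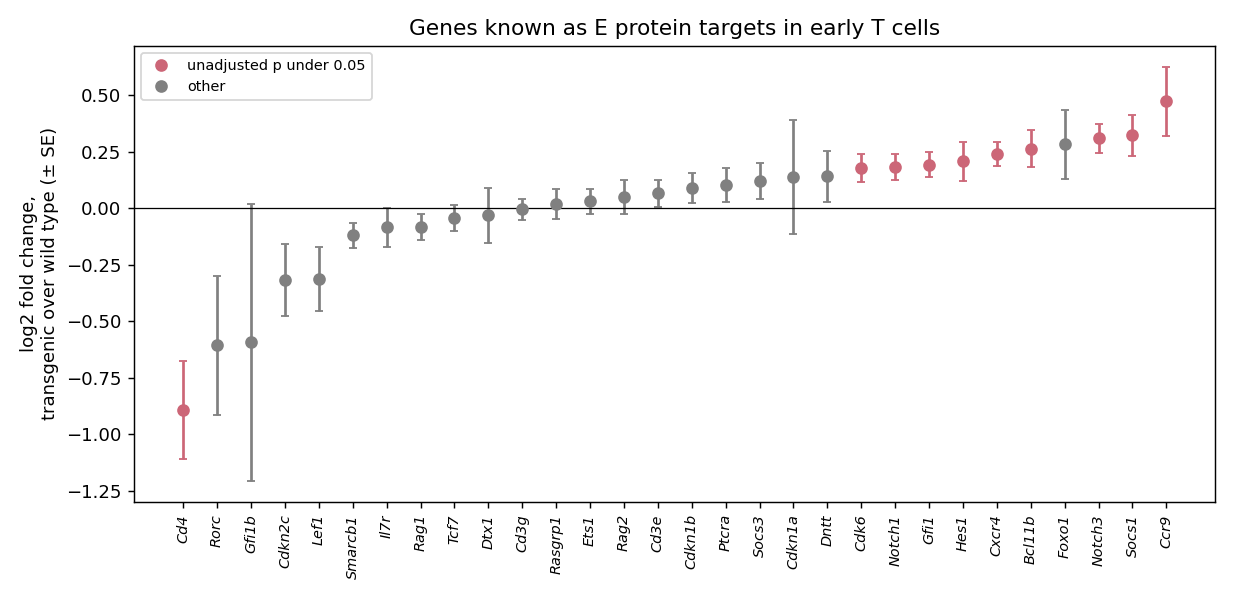
Log2 fold change (transgenic over wild type, ± SE, edgeR) of the 30 genes known as E protein targets, in order of size; red marks an unadjusted p under 0.05. Of the 10 red genes, 9 lie above 0, and none of the 30 passed the adjusted threshold.

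The inputs to the Id genes from the pre-TCR, Egr, BMP and TGF-beta pathways were tested at 18 of 18, 14 of them above and 4 below 0, and their median log2 fold change was 0.10. At an unadjusted p under 0.05, 3 were higher and 1 lower, beside 5.71% and 7.7% of all genes. DESeq2 called Smad3 and Tgfbr1 higher and Zap70 lower, with adjusted p-values of 0.0275, 0.0367 and 0.0296. Smad3, which carries TGF-beta signals to the nucleus, had 112 ± 6.20 CPM in wild-type and 131 ± 4.01 CPM in transgenic libraries (SD, n = 3) without overlap, at an edgeR adjusted p of 0.159. Tgfbr1, a TGF-beta receptor, was at 0.18 ± 0.05 and Nfatc1, a factor downstream of calcium signals, at 0.21 ± 0.08 (log2 fold change, SE). Zap70, a kinase of the T cell receptor pathway, had 56.5, 67.3 and 49.6 CPM in wild-type and 50.7, 40.1 and 35.0 CPM in transgenic libraries. The groups overlapped through transgenic replicate 1, at −0.46 ± 0.15 (SE, edgeR adjusted p = 0.226). Egr1, which lies between the pre-TCR and Id3, was low in both groups, at 4.69 ± 0.511 and 5.02 ± 0.734 CPM.

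Partners of these proteins were measured less completely. Of 12 partners of E and Id proteins 6 were tested, with a median log2 fold change of 0.10. Lyl1, which pairs with E proteins in early precursors, had 3.33, 2.13 and 3.54 CPM in wild-type and 1.41, 1.89 and 1.65 CPM in transgenic libraries, at −0.86 ± 0.31 (SE, edgeR adjusted p = 0.268). Hes1, a Notch target and repressor, was at 0.21 ± 0.09. In the list of the LDB1 complex 14 of 19 were tested with a median of 0.05. Only Gata3, the gene of the transgene, had an unadjusted p under 0.05 in edgeR, beside 13.4% of all genes. Ssbp4, of the family whose products protect LDB1 from degradation, was at −0.17 ± 0.08, and Lmo4 at −0.01 ± 0.11 on the log2 scale. Lmo2, Gata2, Ldb2 and Isl1 were too low to test, and Cbfa2t3 lies at a locus where the authors' estimate failed.

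Of 13 coactivators and corepressors 11 were tested, with a median log2 fold change of 0.04. Crebbp and Ep300, the acetyltransferases that E proteins recruit, had 0.23 ± 0.07 and 0.15 ± 0.07 (SE), and Smarca4, the motor of a chromatin remodeller, 0.16 ± 0.07. Their edgeR adjusted p-values were 0.220 to 0.354. The ubiquitin regulators had 2 above and 7 below 0 among 9 tested of 10, with a median of −0.07. Usp1, a deubiquitinase that stabilises Id proteins, had 167, 189 and 187 CPM in wild-type and 141, 162 and 141 CPM in transgenic libraries. Its groups did not overlap, at −0.29 ± 0.07 (SE, adjusted p 0.170 in edgeR and 0.0133 in DESeq2). Skp2, a ubiquitin ligase subunit that promotes E2A degradation, had −0.30 ± 0.09 (SE, adjusted p 0.204 in edgeR and 0.0495 in DESeq2).

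The Id genes varied most over the 6 libraries, with a range of log2(CPM + 0.5) of 1.02 for Id1, 0.97 for Id2 and 0.63 for Id3, against 0.29 for Ldb1. For these 3, the genes whose centred values were closest were sought among those with a mean of at least 1 CPM. Epb4.1l4a and Jdp2 came closest to Id1, with root mean square differences of 0.060 and 0.095 on that log2 scale. Gm14735 (0.071) and Grm4 (0.085) came closest to Id2, and Trpt1 (0.063) and Lmna (0.074) to Id3. With 6 libraries and 12220 genes compared, close matches of this kind are a description of these libraries only.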

How the data were processed

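Libraries were made from total RNA after removal of ribosomal RNA (Ribo-Zero Gold), per the labels. TopHat2, Cuffdiff and the mm10 build are named in the submitters' processing notes. Not given in the sources used here are versions, annotation, read length and strandedness. The deposited table holds, per transcript and library, an estimated count of fragments and an FPKM value, per the file headers. It also holds the authors' comparison of the groups: a log2 fold change, a p-value, a q-value and a test score per transcript. The members and gene lists were chosen with earlier results of these data known.

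For each gene symbol the expected counts of its transcripts were added up and then rounded. The 197 genes at loci marked as failed estimates (466 transcripts, 0 of the members) were left out. Genes passing filterByExpr (minimum count 10, minimum total count 15; 14653 genes) were tested with edgeR 4.0.16 (R 4.3.3; TMM, quasi-likelihood, two-sided, no covariate), with Benjamini-Hochberg adjustment over all of them and a threshold of 0.05. The 38358 transcripts that passed the filter were tested alike, and usage with diffSpliceDGE over 31349 transcripts of 7402 genes. CPM are TMM-scaled; standard errors derive from the F statistic. The fit had 5.61 prior and 4 residual degrees of freedom. At these depths counting adds little error except for Id1. Transcript names, exons and coordinates are from GENCODE M21 (GRCm38), matched by identifier; for many Tcf4 transcripts the table's lengths differ from it, so their classes are approximate. The tests were checked on simulated data.

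Named were the 7 genes, transcripts with at least 5% of their gene's fragments in a group mean, and, per list, up to 8 genes with an unadjusted p under 0.05 or the 2 with the smallest p. Rag1, Rag2, Ptcra, Egr1, Lmo4 and Pprc1, the HEBAlt transcripts and the transcript classes were added later, with their values known. The alternatives were DESeq2 1.42.0, limma 3.58.1 on log2(FPKM + 0.1) and log2(FPKM + 0.5), other scaling and filters, failed loci kept, the replicate block, Y-linked RNA as a covariate or those libraries left out, and each library left out.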

Additional observations from a re-analysis of the deposited data

How the results depend on the processing

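Of the 7 genes, 0 were called in every gene-level alternative but 1, the one without wild-type replicate 1, which called Ldb1; leaving out single libraries thus gave 0 to 1. Tcf3, Tcf4 and Ldb1 were higher in transgenic libraries under all 15 alternatives; Ldb1's adjusted p ranged from 0.0299 to 0.594 and Tcf4's from 0.170 to 0.652. Tcf12 turned to −0.0531 and −0.0529 with limma on log2(FPKM + 0.1) and log2(FPKM + 0.5). Id2 turned to −0.14 and Id3 to 0.0048 without the 2 libraries with Y-linked RNA. Without single libraries the log2 fold change ran from −0.47 to 0.47 for Id1, from −0.0021 to 0.48 for Id2 and from −0.22 to 0.0463 for Id3. The cause of these turns was not tested. The count of list genes called went from 0 to 11 with DESeq2, 6 with the Y-linked RNA covariate, 5 without those 2 libraries, 1 with failed loci kept, 1 with no filter on low counts, and 0 to 8 without single libraries (8 without wild-type replicate 1). Transcript and usage calls stayed at 0 throughout, and non-overlapping shares went from 0 to 1 with FPKM. The labels do not say whether replicate numbers pair the samples. Correlations of same-numbered deviations were 0.103, 0.057 and −0.0057, which with 3 libraries per group cannot exclude a pairing. With the replicate number as a block, 0 genes, transcripts, usages and list genes were called. Estimated transcript counts limit the isoform values, and depth limits Id1.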
